A study of Mus musculus with 2 samples.

Results

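The interferon regulatory factors are a family of transcription factors that share a DNA-binding domain for sites with repeats of the letters GAAA. Their 8 members examined here, Irf1, Irf2, Irf3, Irf4, Irf5, Irf7, Irf8 and Irf9, were taken from the deposited table by gene symbol. They are 8 of the 54532 genes of that table, and all 8 passed a filter of a mean FPKM (reads of a gene per unit of its length and of sequencing depth) of at least 1, as did 10399 genes in all.

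RNA sequencing was performed on macrophages sorted from mouse aorta on F4/80 and CD11b, proteins on the surface of macrophages that other myeloid cells can also carry. By the labels, all mice carried the Apoe knockout (ApoE-/-) on a C57BL/6J background and both groups have an age of 6 weeks, which may not be the age at sampling since the protocols lasted 4 and 6 weeks. Apoe itself had 17336 reads and 345 FPKM in PDR and 3618 reads and 67.7 FPKM in SKYD, a log2 difference of 2.33 (95% CI 2.28 to 2.38), so that the table does not show the knockout in either library. One value per gene does not tell which exons the reads cover, and whether these reads come from a disrupted gene was not tested. Since the labels give the same genotype to both groups, it sets no direction of the comparison. The PDR (Phlegm-Dampness Retention) group was fed high-fat chow over 4 weeks. The SKYD (Spleen and Kidney Yang Deficiency) group received propylthiouracil, which blocks the synthesis of thyroid hormone, at 10 mg/kg per day over 4 weeks, and then high-fat chow over 2 weeks. Syndrome, drug, time on the diet, length of the protocol and any difference in age at sampling therefore cannot be told apart. The cells of 5 mice were pooled into 1 library per group, so no difference has a replicate check and no p-value is given. The PDR library held 23086889 reads on genes, the SKYD library 25427863.

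In macrophages, sensors of microbial nucleic acids and lipids activate kinases that phosphorylate IRF3, IRF5 and IRF7, which then switch on interferon and cytokine genes. Secreted interferon acts through its receptors and JAK kinases, and Irf1 is among the first genes that interferon-gamma induces. IRF9 is the DNA-binding part of the complex ISGF3, which forms after type I interferon and induces antiviral genes and Irf7. IRF8 and IRF4 bind DNA mostly with partners such as PU.1 and act in the development of myeloid cells and lymphocytes.

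Of the 8 members 6 were higher in the PDR library and 2, Irf2 and Irf3, were lower, although the sign of Irf3 turned with 1 of the rescalings. Among all 10399 genes that passed the filter 49.6% were higher in PDR. Within the family, Irf1, Irf8 and Irf7 lay furthest apart between the libraries. Its 8 genes held 26262 reads in the PDR library, 0.114% of all reads on genes (exact binomial 95% CI 0.112 to 0.115), compared with 15095 in the SKYD library, 0.0594% (95% CI 0.0584 to 0.0603). Differences are given as log2(FPKM + 1) in PDR minus SKYD, a scale that understates the change of low genes. On it 3 of the 8 members were more than 2-fold higher in PDR, compared with 7.38% of all tested genes and 4.57% of the 460 tested genes that the table assigns to a transcription factor family. In SKYD 0 members were more than 2-fold higher, compared with 6.91% of all tested genes and 6.74% of the transcription factor genes. The median difference of the members was 0.45, that of all tested genes -0.0035 and that of the transcription factor genes -0.11. Intervals of differences and folds are exact (Clopper-Pearson) 95% limits on how the reads of a gene split between the libraries, those of levels are exact Poisson limits, and both cover counting error only. In pooled RNA, fewer cells of a type and less RNA per cell cannot be told apart.

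**Figure D1:**
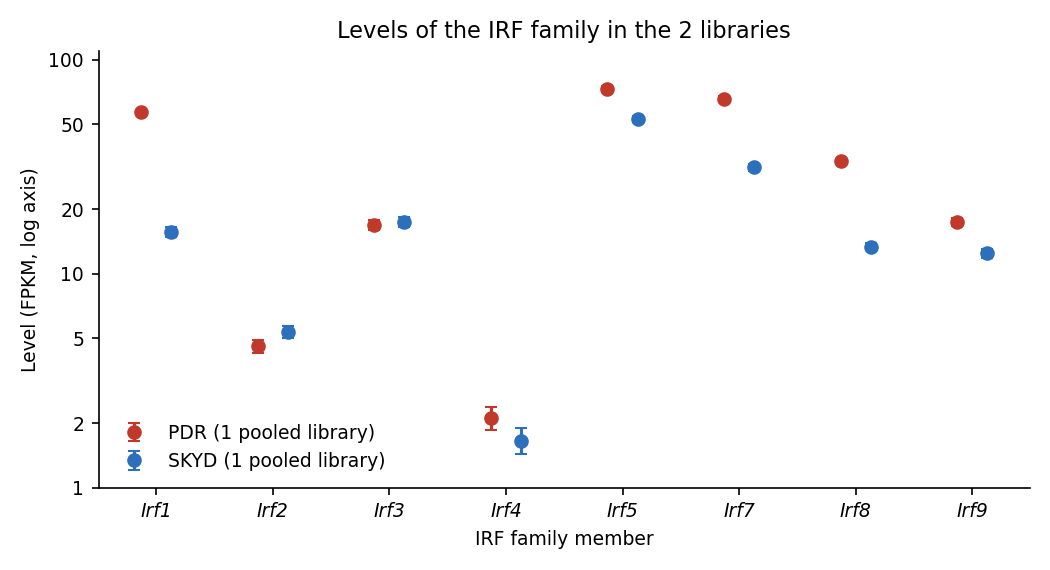
Level of each IRF family member in FPKM (log axis) in the PDR library (red) and the SKYD library (blue), with 1 pooled library per group and bars for exact Poisson 95% limits, which are often smaller than the points. Irf1 lay at 56.6 in PDR and 15.6 in SKYD, while for Irf3 and Irf4 the limits of the libraries overlap.

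Irf1 and Irf2 are a pair of opposite sign, since IRF1 activates genes of the interferon response and IRF2 occupies the same sites and mostly represses them. Irf1 (ENSMUSG00000018899, chromosome 11 from 53770014 to 53778374 of GRCm38, plus strand) had 5290 reads in PDR and 1555 in SKYD. Its level was 56.6 FPKM in PDR (95% CI 55.1 to 58.2) and 15.6 FPKM in SKYD (95% CI 14.9 to 16.4). The log2 difference was 1.79 (95% CI 1.71 to 1.87), and by FPKM Irf1 was 3.62-fold higher in PDR (95% CI 3.42 to 3.83). This was the largest difference of the family, above that of 97.3% of all tested genes. Irf2 (ENSMUSG00000031627, chromosome 8 from 46739732 to 46847458, plus strand) went slightly the other way, with 795 reads in PDR and 988 in SKYD. Its level was 4.58 FPKM in PDR and 5.34 FPKM in SKYD, a log2 difference of -0.19 (95% CI -0.30 to -0.07). A ratio of the pair within a library does not depend on how the libraries are scaled. Irf1 had 12.4 times the FPKM of Irf2 in PDR and 2.93 times in SKYD, so that the ratio was 4.23 times as large in PDR (95% CI 3.78 to 4.72). Both genes overlap genes of the opposite strand, and whether the counting used strand is not given in the sources used here. Those genes had few reads, with 4 in PDR and 1 in SKYD for Gm17334 at Irf1, and 20 and 0 for Gm45479, 17 and 0 for Gm45481 and 0 in both libraries for Gm31172 at Irf2.

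The promoters of the 3 members above 2-fold and of Irf2 are shown because interferon acts on promoter sites whose core letters are known. The letters of the gamma-activated sequence or GAS, known from genes that interferon-gamma induces, were searched as TTCNNNGAA, which reads the same on both strands. Those of the interferon-stimulated response element or ISRE, bound by ISGF3 and IRF proteins, were searched as GAAANNGAAA, or TTTCNNTTTC on the other strand. RefSeq windows of GRCm38.p6 from 250 bases before to 50 after a gene's start were read, and all 8 members matched, with 11 windows. Printed 5′ to 3′ on the strand of the gene up to the first transcribed base, with matches in capitals, are Irf1 at chr11:53769764-53770013 (plus strand), Irf8 at chr8:120736108-120736357 (plus strand), Irf2 at chr8:46739495-46739731 (plus strand) and Irf7 at chr7:141266482-141266674 (minus strand).
Irf1: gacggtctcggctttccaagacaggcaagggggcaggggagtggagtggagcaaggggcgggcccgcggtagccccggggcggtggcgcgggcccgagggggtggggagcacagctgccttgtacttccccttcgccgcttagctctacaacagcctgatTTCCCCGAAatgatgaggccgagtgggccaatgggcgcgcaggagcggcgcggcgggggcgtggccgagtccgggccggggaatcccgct
Irf8: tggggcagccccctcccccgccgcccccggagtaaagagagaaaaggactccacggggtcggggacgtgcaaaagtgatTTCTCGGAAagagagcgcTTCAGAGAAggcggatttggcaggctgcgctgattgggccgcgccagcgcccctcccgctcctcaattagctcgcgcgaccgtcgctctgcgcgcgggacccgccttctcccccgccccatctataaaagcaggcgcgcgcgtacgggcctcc
Irf2: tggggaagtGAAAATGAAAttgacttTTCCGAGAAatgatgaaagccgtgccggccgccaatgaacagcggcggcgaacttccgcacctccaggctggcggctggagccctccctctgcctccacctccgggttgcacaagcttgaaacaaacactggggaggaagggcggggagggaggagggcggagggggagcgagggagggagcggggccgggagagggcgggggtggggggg
Irf7: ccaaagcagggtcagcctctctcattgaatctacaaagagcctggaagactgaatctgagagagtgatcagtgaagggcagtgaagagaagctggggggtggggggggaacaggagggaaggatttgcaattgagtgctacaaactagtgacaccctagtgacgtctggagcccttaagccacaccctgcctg
Of the 8 members 3 held the GAS letters and 1 the ISRE letters in any window, compared with 9.55% and 3.99% of all 27025 genes of the promoter table. Irf1 had TTCCCCGAA from -90 to -82 relative to the RefSeq start. Irf8 had TTCTCGGAA from -171 to -163 and TTCAGAGAA from -153 to -145. Irf2 had the ISRE letters GAAAATGAAA from -241 to -232 and the GAS letters TTCCGAGAA from -224 to -216, which do not overlap each other. The windows of Irf7 and of the remaining members held neither. The members with a match thus included Irf1, which differed most towards PDR, and the gene lowest in PDR relative to SKYD, Irf2. A match of letters is not a measured binding site, and binding was not measured in these libraries.

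Irf3, Irf5 and Irf7 are the members that wait in the cytoplasm until a sensor is engaged. Irf3 is made constantly and starts the synthesis of interferon-beta, and Irf7 is itself induced by interferon and amplifies that synthesis. Irf7 (ENSMUSG00000025498, chromosome 7 from 141262706 to 141266481, minus strand) had 5820 reads in PDR and 2962 in SKYD. Its level was 65.6 FPKM in PDR (95% CI 63.9 to 67.3) and 31.4 FPKM in SKYD (95% CI 30.3 to 32.5). The log2 difference was 1.04 (95% CI 0.98 to 1.10), an interval that spans the threshold of 2-fold. Irf3 (ENSMUSG00000003184, chromosome 7 from 44997648 to 45002848, plus strand) had nearly the same level in both libraries, 16.9 FPKM in PDR and 17.5 FPKM in SKYD. From its 1368 and 1502 reads, the log2 difference was -0.04 (95% CI -0.14 to 0.06), so that no difference was detectable at this depth. With FPKM rescaled on protein-coding genes only, the sign of Irf3 turned to 0.08 while the median of all tested genes moved to 0.11. The FPKM of Irf7 was 3.88 times that of Irf3 in PDR and 1.80 times in SKYD, a ratio 2.16 times as large in PDR (95% CI 1.98 to 2.35). Irf5 (ENSMUSG00000029771, chromosome 6 from 29526625 to 29541871, plus strand), which acts below Toll-like receptors and MyD88 and drives cytokine genes such as those of interleukin-12, was abundant in both libraries. It had 4979 reads and 73.0 FPKM in PDR (95% CI 71.0 to 75.0) and 3848 reads and 53.0 FPKM in SKYD (95% CI 51.3 to 54.7). Its log2 difference was 0.45 (95% CI 0.39 to 0.51), or 1.38-fold by FPKM. The ends of Irf3, Irf5 and Irf7 overlap genes of the opposite strand with more reads than those at Irf1 and Irf2. Bcl2l12 at Irf3 had 113 reads in PDR and 233 in SKYD, Tnpo3 at Irf5 had 451 and 580, and Phrf1 at Irf7 had 262 and 239, so that reads in the shared bases may have been lost or assigned to either gene.

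Irf9 encodes the DNA-binding subunit of ISGF3. Irf9 (ENSMUSG00000002325, chromosome 14 from 55603571 to 55610030, plus strand) had 2201 reads in PDR and 1677 in SKYD. Its level was 17.4 FPKM in PDR (95% CI 16.7 to 18.1) and 12.5 FPKM in SKYD (95% CI 11.9 to 13.1), a log2 difference of 0.45 (95% CI 0.36 to 0.54). It thus differed as much as Irf5 did, and less than Irf7, a target of ISGF3. It shares 123 bases with Rnf31 on the same strand, which had 298 reads in PDR and 257 in SKYD.

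Irf8 and Irf4 are close relatives that are made by cells of the immune system. IRF8 with PU.1 directs the development of monocytes, macrophages and dendritic cells and is also made by B cells, and IRF4 acts in plasma cells, in dendritic cells and in alternatively activated macrophages. Irf8 (ENSMUSG00000041515, chromosome 8 from 120736358 to 120756694, plus strand) had 5566 reads in PDR and 2360 in SKYD. Its level was 33.6 FPKM in PDR (95% CI 32.7 to 34.5) and 13.4 FPKM in SKYD (95% CI 12.8 to 13.9). The log2 difference was 1.27 (95% CI 1.20 to 1.33), and by FPKM Irf8 was 2.51-fold higher in PDR (95% CI 2.39 to 2.63). Irf4 (ENSMUSG00000021356, chromosome 13 from 30749226 to 30766976, plus strand) was the least abundant member in both libraries. It had 243 reads and 2.11 FPKM in PDR (95% CI 1.85 to 2.39) and 203 reads and 1.66 FPKM in SKYD (95% CI 1.44 to 1.90). The log2 difference of Irf4 was 0.23 (95% CI 0.05 to 0.41). The FPKM of Irf8 was 15.9 times that of Irf4 in PDR and 8.08 times in SKYD, a ratio 1.97 times as large in PDR (95% CI 1.62 to 2.40). Relative to Irf5, the member with the highest deposited FPKM in both libraries, Irf8 was at 0.460 times its FPKM in PDR and 0.253 times in SKYD. The annotated gene Gm20388, which contains Irf8 on the same strand, had 0 reads in both libraries.

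**Figure D2:**
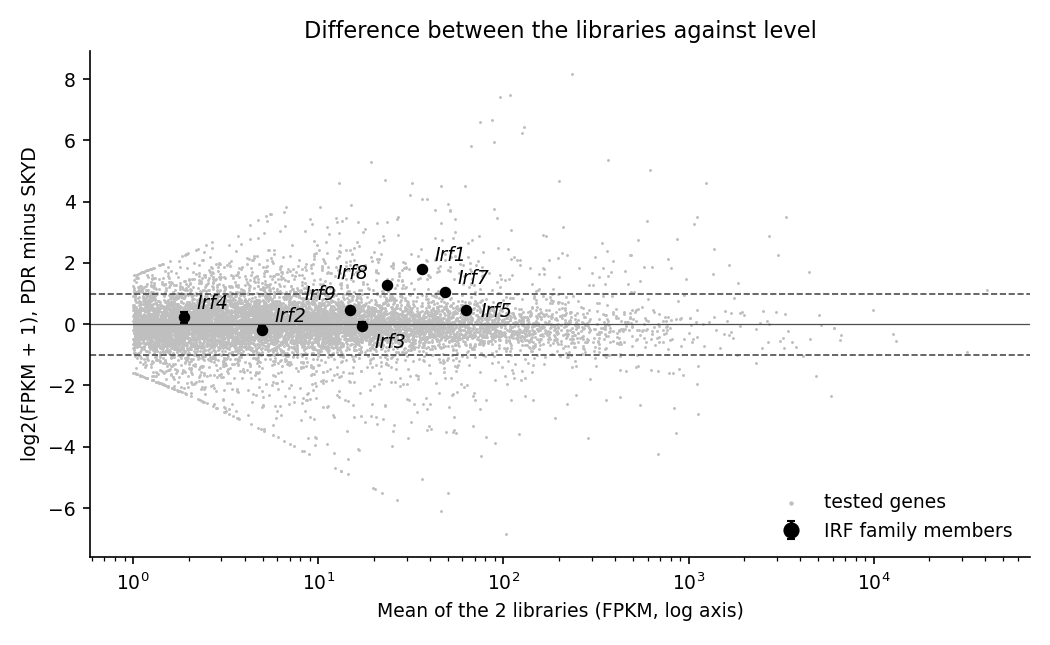
Difference in log2(FPKM + 1), PDR minus SKYD, against the mean of the 2 libraries in FPKM (log axis) for the 10399 tested genes (grey) and the 8 IRF family members (black, with 95% counting limits). Dashed lines mark 2-fold. Irf1, Irf8 and Irf7 lie above the upper line at 1.79, 1.27 and 1.04, and Irf2 and Irf3 lie just below 0 at -0.19 and -0.04, where Irf3 changes sign with rescaling on protein-coding genes.

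The mix of the family differed between the libraries. By reads, Irf7, Irf8 and Irf1 made up 22.2%, 21.2% and 20.1% of the family in PDR and 19.6%, 15.6% and 10.3% in SKYD. Irf5 was the largest part in SKYD, with 25.5% compared with 19.0% in PDR. Irf9 held 8.38% of the family's reads in PDR and 11.1% in SKYD. The share of Irf3 was 5.21% in PDR and 9.95% in SKYD, that of Irf2 3.03% and 6.55%, and that of Irf4 0.925% and 1.34%.

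Ordered by FPKM, the members in the PDR library ran Irf5, Irf7, Irf1, Irf8, Irf9, Irf3, Irf2 and Irf4. In the SKYD library the order was Irf5, Irf7, Irf3, Irf1, Irf8, Irf9, Irf2 and Irf4. The Poisson limits of neighbours overlap for Irf9 and Irf3 in PDR and for Irf8 and Irf9 in SKYD, and these neighbours are not told apart by level. Irf1 thus stood above Irf3 in PDR and below it in SKYD. The order also rests on the gene length that FPKM divides by. The deposited length equals the summed length of all annotated exons for all 8 members, which for Irf2 is 7396 bases and for Irf8 7055 bases, although the longest coding transcripts have 2497 and 2847 bases. With reads divided by the longest coding transcript, an alternative added after the data were seen, the level was 111 FPKM for Irf7, 105 FPKM for Irf1 and 94.6 FPKM for Irf5 in PDR, which placed Irf5 behind both, while the limits of Irf7 and Irf1 overlap. In SKYD the same division gave 68.7 FPKM for Irf5, 53.0 FPKM for Irf7 and 33.2 FPKM for Irf8, with Irf3 at 29.6 FPKM and Irf1 at 29.1 FPKM, whose limits overlap. Ratios between the libraries for 1 gene do not change with the length. The ratios of 2 members within a library given above do change with it, while their change between the libraries does not. By the longest coding transcript Irf8 was at 83.2 FPKM and Irf4 at 2.17 FPKM in PDR, compared with 33.6 and 2.11 FPKM as deposited.

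**Figure D3:**
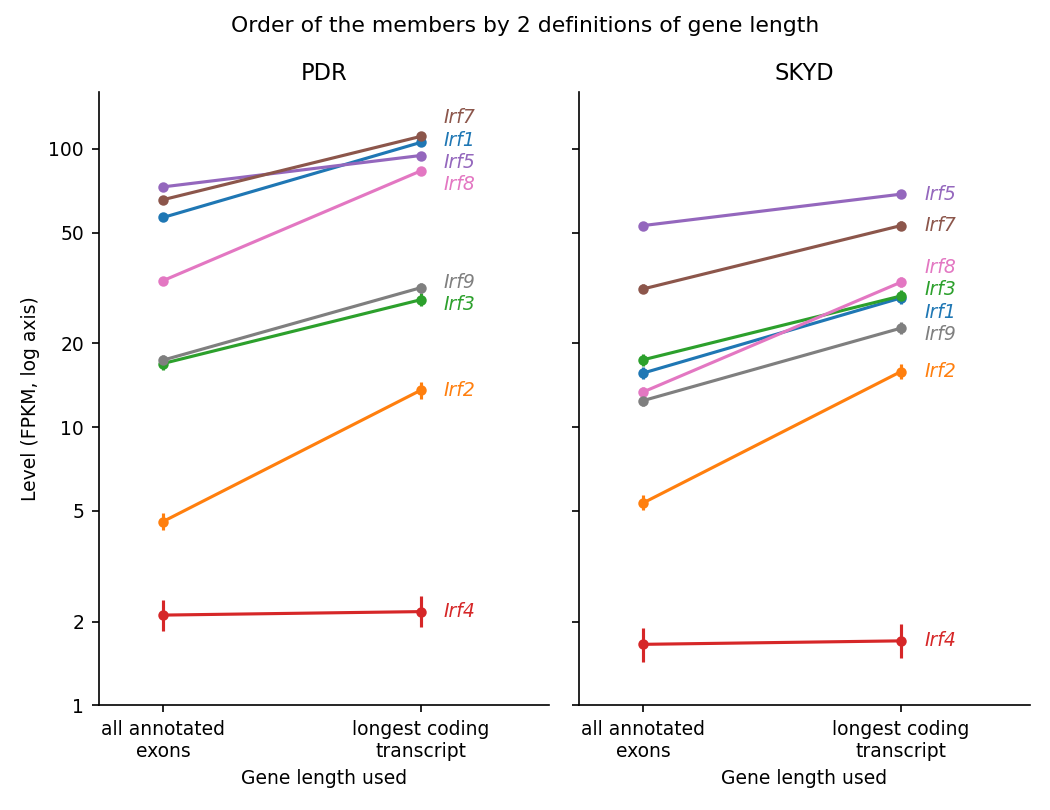
Level of each member in FPKM (log axis) in the PDR library (left) and the SKYD library (right), from the length of all annotated exons as deposited and from the longest coding transcript. Bars are exact Poisson 95% limits, and crossing lines mark a change of order, as for Irf5, Irf7 and Irf1 in PDR.

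Set beside the other transcription factors, Irf1 had the difference of rank 6 among the 460 tested genes, counted from the highest in PDR, Irf8 of rank 14 and Irf7 of rank 18. Irf5 and Irf9 followed at ranks 62 and 63, Irf4 at 121, Irf3 at 210 and Irf2 at 265. By level in FPKM, Irf1 was at rank 16 of these genes in PDR and at rank 54 in SKYD, and Irf8 was at rank 24 and at rank 70. Irf5 moved less, from rank 11 in PDR to rank 17 in SKYD.

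The genes with the difference most like that of Irf1 were taken among the 1535 protein-coding genes outside the family with a mean FPKM within 2-fold of it. They were BC035044 with a log2 difference of 1.79, Adh1 with 1.78 and Ambp with 1.81. Adh1, an alcohol dehydrogenase, and Ambp, the precursor of a plasma protein, are known as liver genes. The marker lists below hold no liver cells, which the gate on F4/80 and CD11b should exclude, so a list of 12 liver genes was added after the data were seen. Of its 11 tested genes 10 were higher in PDR, 9 of them more than 2-fold, with a median difference of 1.69 and shares of 0.270% of reads in PDR and 0.0827% in SKYD. Of all tested genes 49.6% were higher in PDR and 7.38% more than 2-fold. The most abundant gene of the liver list, Apoa2, was at 793 FPKM in PDR and 294 FPKM in SKYD. Its gene Trf, named after its value was seen, was lower in PDR (-0.50). The source of these reads was not tested. For Irf2, among 3111 such genes, the closest were Nudt3, Ahnak and Depdc1a, each at -0.19. With 2 libraries the likeness is a single difference, and it says nothing of shared control.

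The ligands that start and result from the pathway had few reads. Of 21 interferon genes listed, 0 reached a mean FPKM of 1 and 19 had 0 reads in both libraries, which allows up to 3 reads each (1-sided 95% limit). The exceptions were Ifng, with 39 reads in PDR and 6 in SKYD, and Ifnb1, with 0 and 12.

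The 8 listed genes of the interferon receptors, their JAK kinases and Stat2 were all tested, with 5 higher in PDR, 0 beyond 2-fold in either direction on the log2(FPKM + 1) scale and a median difference of 0.41. Of all tested genes 49.6% were higher in PDR, 7.38% were beyond 2-fold towards PDR and 6.91% towards SKYD. The median of the list turned to -0.10 at a mean FPKM of at least 5, where fewer genes are tested. By FPKM 1 gene of the list, Stat2, exceeded 2-fold. The receptor for interferon-gamma differed by chain, since Ifngr1, which binds the ligand, was at 114 FPKM in PDR and 168 FPKM in SKYD (log2 difference -0.55, 95% CI -0.60 to -0.51), and Ifngr2 at 37.2 and 24.3 FPKM (log2 difference 0.60, 95% CI 0.52 to 0.67). The chains of the type I receptor likewise went both ways, with log2 differences of 0.52 for Ifnar1 (95% CI 0.41 to 0.64) and -0.31 for Ifnar2 (95% CI -0.39 to -0.24). Among the kinases, the log2 difference was -0.10 for Jak1, 0.31 for Jak2 and 0.67 for Tyk2. Stat2, a subunit of ISGF3 with Irf9, differed most, with 3.85 FPKM in PDR and 1.80 FPKM in SKYD and a log2 difference of 0.79 (95% CI 0.64 to 0.94). By FPKM Stat2 was 2.14-fold higher in PDR, while Irf9 was 1.40-fold higher.

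Upstream of IRF3, IRF5 and IRF7, 18 of 22 listed sensors, adaptors and kinases were tested, of which 15 were higher in PDR and 0 exceeded 2-fold in either direction on the log2(FPKM + 1) scale. For all tested genes the shares were 49.6% higher in PDR, 7.38% beyond 2-fold towards PDR and 6.91% towards SKYD. By FPKM 2 genes of the list exceeded 2-fold towards PDR, Chuk at 2.22-fold and Ddx58, named after its value was seen, at 2.13-fold. The median difference of the list was 0.46. The most abundant were Myd88, the adaptor of most Toll-like receptors, at 52.5 FPKM in PDR and 66.1 FPKM in SKYD (log2 difference -0.33), and Tmem173, which encodes STING, at 54.3 and 35.9 FPKM (0.58). Tlr7, a receptor for single-stranded RNA, had a log2 difference of 0.46. The largest differences were those of Chuk, the kinase IKK-alpha, with 0.99 (95% CI 0.87 to 1.12), and of Tlr4, the receptor for lipopolysaccharide, with 0.90.

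The proteins that bind or modify IRF proteins were split, with 7 of 13 tested genes higher in PDR and 6 lower and a median difference of 0.35. The share of all tested genes higher in PDR was 49.6%. Spi1, which encodes the partner PU.1, was at 108 FPKM in PDR and 179 FPKM in SKYD, a log2 difference of -0.72 (95% CI -0.76 to -0.68), opposite to that of Irf8. Batf, a partner of IRF4 and IRF8, had a log2 difference of 0.35, and Batf3, a relative that acts with IRF8 in dendritic cells, of -0.61. Batf2, a relative of Batf that joins IRF1, differed most, with 494 reads and 8.34 FPKM in PDR and 64 reads and 1.02 FPKM in SKYD. Its log2 difference was 2.21 (95% CI 1.99 to 2.42). Trim21, a ubiquitin ligase of IRF proteins, had 0.99 (95% CI 0.84 to 1.14). On the log2(FPKM + 1) scale Batf2 alone of this list exceeded 2-fold towards PDR, while by FPKM 3 genes did, since Trim21 was 2.23-fold higher and Spib, named after its value was seen, 2.22-fold. The share of all tested genes beyond 2-fold towards PDR on the log2(FPKM + 1) scale was 7.38%.

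Genes known to be induced through IRF1 were mostly higher in PDR, 18 of the 19 tested, compared with 49.6% of all tested genes. On the log2(FPKM + 1) scale 11 of these 19, from 22 listed genes, exceeded 2-fold towards PDR and 0 towards SKYD. The shares of all tested genes beyond 2-fold were 7.38% towards PDR and 6.91% towards SKYD. The median difference of the list was 1.22. The chemokine gene Cxcl10 (log2 difference 3.37) and the guanylate-binding protein gene Gbp2 (2.88, 95% CI 2.79 to 2.97) differed most. The most abundant genes differed less, with 0.93 for the immunoproteasome subunit Psmb8, 0.89 for the inflammasome protease Casp1 and 0.68 for the immunoproteasome subunit Psmb10. The exception in direction was Socs1, a feedback inhibitor of JAK kinases, named after its value was seen, with 357 reads in PDR and 825 in SKYD and a log2 difference of -0.99, and by FPKM it was 2.17-fold higher in SKYD. Of 16 genes with a RefSeq window, 7 held the ISRE letters and 3 the GAS letters, compared with the 3.99% and 9.55% of all genes given above. The 3 were Gbp5, Gbp7 and Psmb8, named for the match.

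Genes known to be induced through ISGF3 differed less. Of 22 listed genes 20 were tested, 7 exceeded 2-fold towards PDR (9 by FPKM) and 0 towards SKYD, and the median difference was 0.81. The counts of 7 and 0 compare with 7.38% and 6.91% of all tested genes. Ifit3 (log2 difference 1.87, 95% CI 1.75 to 1.99) and Ifi44 (1.45, 95% CI 1.30 to 1.59), both antiviral genes, differed most. Of the most abundant genes, Bst2, which encodes tetherin, was at -0.10, the 2′-5′ oligoadenylate synthetase gene Oas1a at 0.13 and Rtp4 at 0.90. Bst2 was the only tested gene of this list that was lower in PDR. Among the 16 genes with a RefSeq window, 8 held the ISRE letters and 6 the GAS letters.

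Genes linked to IRF4 in alternative activation went mostly the other way. Of 9 listed genes 7 were tested, with a median difference of -0.66. Beyond 2-fold were 0 towards PDR and 2 towards SKYD, compared with 7.38% and 6.91% of all tested genes. Ccl17 (log2 difference -3.57) and Retnla (-2.34, 95% CI -2.36 to -2.32) were the 2, while Chil3, also a marker of alternative activation, was at 0.86 (95% CI 0.85 to 0.88). Irf4 itself was at 0.23, so that it and this list differed in sign.

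**Figure D4:**
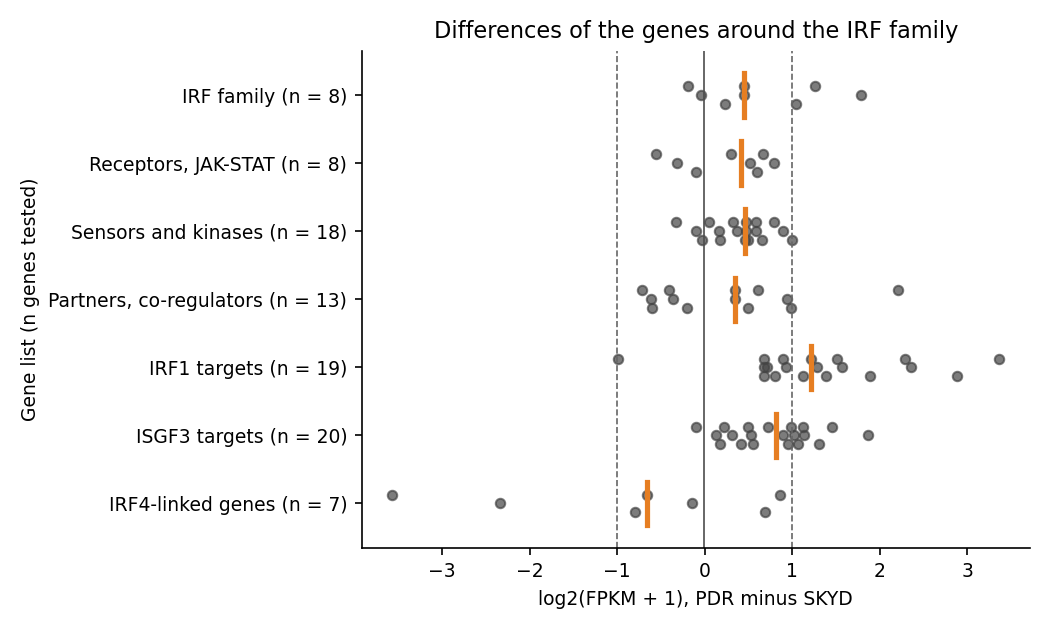
Difference in log2(FPKM + 1), PDR minus SKYD, for each tested gene (points) of the IRF family and 6 lists around it, with the median of each list (orange bar), 2-fold (dashed lines) and the median of all tested genes (solid line at -0.0035). The lists of genes induced through IRF1 and through ISGF3 have medians of 1.22 and 0.81, and the list linked to IRF4 has a median of -0.66.

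Several members are also made by lymphocytes and dendritic cells, and markers of these cells moved between the libraries. The 12 macrophage markers took 3.14% of reads in PDR and 5.64% in SKYD, with a median difference of -0.58 and Lyz2 as the most abundant. Most of these reads fell on Lyz2, with 686737 in PDR and 1359594 in SKYD. Without the marker with most reads, an alternative added after the data were seen, the shares were 0.168% and 0.297%, and without Lyz2 and Cd14, the 2 with most reads, 0.145% and 0.152%. Csf1r (log2 difference 0.35), Fcgr1 (0.54) and Aif1 (0.45) were higher in PDR and Adgre1 was at -0.10, these and Cd14 named after their values were seen. The 10 B cell markers, led by Cd79b, took 0.376% of reads in PDR and 0.0699% in SKYD, with a median of 2.25 over 7 tested genes. The 8 plasma cell markers, led by Jchain, took 0.831% and 0.691%, or 0.195% and 0.0968% without Jchain, with a median of 1.47 over 7 tested genes. Irf8, which B cells make, was thus higher in the library with more reads of B cell markers. The 8 markers of plasmacytoid dendritic cells, a cell type with high Irf7 and Irf8, took 0.0854% of reads in PDR and 0.108% in SKYD, with a median of -1.28 over 7 tested genes and Ly6d as the most abundant. Ly6d, at -0.03, held 17909 of 19727 reads in PDR and 19439 of 27462 in SKYD, and without it, as added for macrophages, the shares were 0.00787% and 0.0316%. Of the 7 tested genes 4 were beyond 2-fold towards SKYD, compared with 6.91% of all tested genes. These 4 were Klk1 with 0 reads in PDR and 1067 in SKYD, Ccr9 with 131 and 4774 (-3.67), Siglech with 39 and 964 (-3.06) and Cox6a2 with 71 and 207 (-1.28). Spib (0.94) and Tcf4 (0.32) were higher in PDR, all 6 named after their values were seen. Those of conventional dendritic cells, led by Cd209a, took 0.0130% and 0.0342%, or 0.00619% and 0.00830% without Cd209a, with a median of -0.61 over 5 tested genes. Both dendritic cell lists were thus lower in PDR by their median, opposite to Irf7 and Irf8. The 10 T cell markers, led by Cd8b1, took 0.0759% of reads in PDR and 0.310% in SKYD, with a median of -2.30, and 9 were lower in PDR while Cd2, named after its value was seen, was higher (0.30). The 8 NK cell markers, led by Gzma, took 0.0553% and 0.0209%, with a median of 1.39 over 7 tested genes. For the 8 neutrophil markers, led by S100a9, the shares were 0.334% and 0.250% and the median was 0.63. No gene of these lists was at 0 in both libraries. The part of these cells in the differences of the IRF family was not tested.

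**Figure D5:**
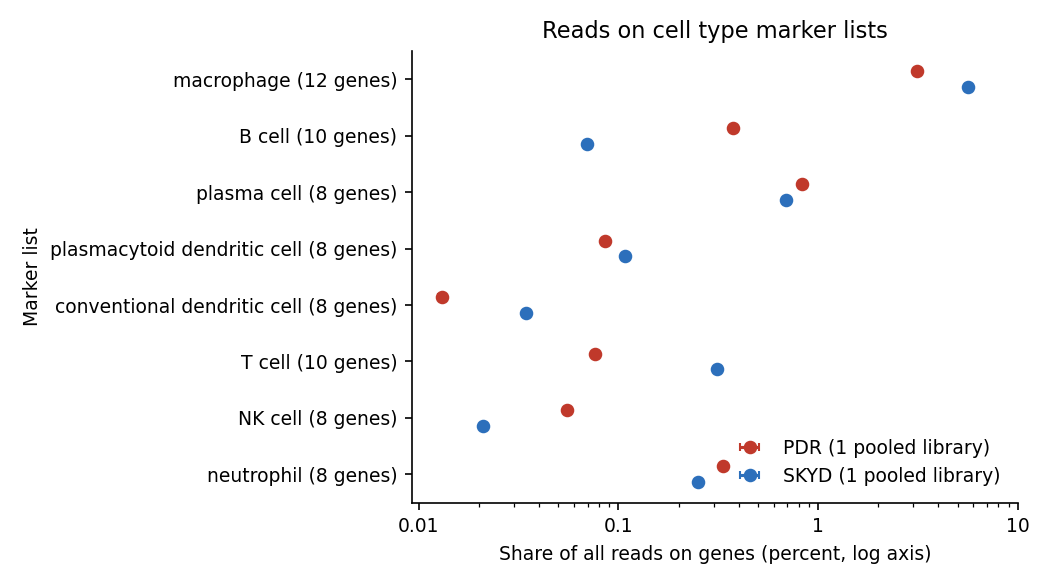
Share of all reads on genes (percent, log axis) that fell on each of 8 lists of cell type markers in the PDR library (red) and the SKYD library (blue), with exact binomial 95% limits that are mostly smaller than the points. B cell markers took 0.376% of reads in PDR and 0.0699% in SKYD, and T cell markers 0.0759% and 0.310%.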

How the data were processed

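RNA of sorted macrophages was sequenced in 1 pooled library per group. According to the submitters' processing notes, TopHat2 2.0.9, Bowtie2 2.0.6 and HTSeq 0.6.1 were used, and the authors deposited FPKM with the length and position of each gene. The notes name mm9, but 98.3% of 54409 shared genes have the start and end of GENCODE M21 on GRCm38. FPKM times length was a whole multiple, within 0.001, of 1 step per library for 100% of genes above 0, and reads were counted in these steps. The step corresponds to a library size of 1.02 times the reads on genes in PDR and 0.983 times in SKYD, a scaling that the deposited FPKM keeps.

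Genes were tested where FPKM averaged at least 1 over the libraries, on the scale log2(FPKM + 1), and differences beyond 2-fold were counted. The text names all members, all receptor and JAK-STAT genes, ligands with more than 3 reads, the 3 most abundant and 2 most different tested genes of other pathway lists, the most abundant marker per cell type, and the 3 genes nearest to Irf1 and Irf2. Members and the 15 other lists, which share 3 genes, were chosen with earlier results of these data known, and a list of liver genes was added after the data were seen. Some genes of the receptor and partner lists are not reported here, and the counts and medians of these lists were computed without them. Alternatives were pseudocounts of 0.1 and 0.01, no filter, a mean FPKM of at least 5, TPM, centring on the median or a trimmed mean, protein-coding genes only and a 1.5-fold threshold. Steps were tested on simulated data. Calculations used scipy 1.17.1, pandas 2.3.3 and numpy 2.4.6 and plots used matplotlib 3.10.9, all under Python 3.11.15.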

Additional observations from a re-analysis of the deposited data

How the results depend on the processing

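The count of 3 members beyond the threshold towards PDR and 0 towards SKYD was the same under all 9 alternatives. Of these, no filter, a mean FPKM of at least 5, the smaller pseudocounts and 1.5-fold could not lower the count of 3. The share of all tested genes beyond the threshold was not the same, at 7.38% towards PDR and 6.91% towards SKYD in the main setting. It was 10.2% and 9.71% with a pseudocount of 0.1, and 1.57% and 1.56% without a filter. At 1.5-fold it was 15.1% and 15.0%, which is the background for the counts of members and lists at that threshold. Under the alternatives the differences lay within 1.79 to 1.92 for Irf1, 1.27 to 1.39 for Irf8 and 1.04 to 1.17 for Irf7. The differences of Irf5 lay within 0.45 to 0.58, of Irf9 within 0.45 to 0.57, of Irf4 within 0.23 to 0.35 and of Irf2 within -0.22 to -0.08, while Irf3 ran from -0.05 to 0.08. The members' median was 0.75 at a mean FPKM of at least 5, where 2 members drop out, and 0.58 when rescaled on protein-coding genes. Over the counts and medians of the family and the lists and the ranks of the members, 156 values stayed within 1.5 times the main count, within the counting interval or at the same rank, 41 moved and 1 changed sign.

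For the receptor and JAK-STAT list the median turned to -0.10 at a mean FPKM of at least 5, where fewer genes are tested. Its count above 2-fold in PDR was 1 with pseudocounts of 0.1 and 0.01 and 3 at 1.5-fold. For sensors and kinases that count was 2 with both pseudocounts, 1 in TPM, 2 on protein-coding genes and 5 at 1.5-fold. For partners it was 3 with both pseudocounts, in TPM and on protein-coding genes, 0 at a mean FPKM of at least 5 and 4 at 1.5-fold, with 3 in SKYD, and the median was 0.21 without a filter. For genes induced through IRF1 the count was 18 in PDR at 1.5-fold and 1 in SKYD with both pseudocounts, in TPM and at 1.5-fold, and the median was 1.41 with both pseudocounts and 1.03 without a filter. For genes induced through ISGF3 the count was 4 at a mean FPKM of at least 5 and 11 at 1.5-fold, and the median was 0.64 there without a filter and at a mean FPKM of at least 5. For genes linked to IRF4 the counts at 1.5-fold were 2 in PDR and 4 in SKYD, and the median was -0.89 and -0.90 with pseudocounts of 0.1 and 0.01 and -0.47 at a mean FPKM of at least 5. By the longest coding transcript, added after the data were seen, Irf7, Irf1 and Irf5 ranked 1, 2 and 3 in PDR, where the limits of Irf7 and Irf1 overlap, and Irf8, Irf3 and Irf1 ranked 3, 4 and 5 in SKYD, where those of Irf3 and Irf1 overlap. Shares of reads on marker lists, PDR over SKYD, were also computed without the 1 or 2 markers with most reads, likewise added after the data were seen. The ratio went from 0.557 to 0.568 and 0.952 for macrophages, from 1.20 to 2.02 and 3.84 for plasma cells, from 0.791 to 0.250 and 0.572 for plasmacytoid and from 0.380 to 0.745 and 0.798 for conventional dendritic cells, and stayed within 1.5 times for the other 4 lists. Apart from fewer genes tested, another threshold and another length, the cause was not tested.

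No paired analysis was possible because each group has 1 library. The depth limits Irf4 most, with 243 and 203 reads.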

Other observations

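Among the 460 tested transcription factor genes, 5 had a larger difference in PDR than Irf1, all named after their values were seen. These were Mef2b, with 1010 reads in PDR and 76 in SKYD (log2 difference 3.32), Tbx21, which directs effector T and NK cells, with 372 and 14 reads (2.59), Batf2 (2.21), Sp140, with 3184 and 811 reads (1.96), and Zbtb32, with 1010 and 254 reads (1.86). Among those higher in SKYD, Tcf7 had 475 reads in PDR and 6501 in SKYD (log2 difference -3.52) and Satb1 had 328 and 5353 reads (-2.82). Both genes are known for their roles in developing T cells, and 9 of the 10 T cell markers were higher in SKYD as well, Cd2 being the exception. The part of T cells in these differences was not tested.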
